A study of Homo sapiens with 12 samples.

Results

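The 10 genes described here encode chains of the receptors for interleukins and for transforming growth factor beta (TGF-beta), namely IL7R, IL2RA, IL2RB, IL2RG, IL4R, IL21R, IL6ST, IL10RA, TGFBR1 and TGFBR2. They were taken by gene symbol from the 62069 Ensembl genes of the deposited table, as a set chosen with earlier results of these data known, and all 10 reached a value of 10 in 3 or more libraries and so entered the tests over 19281 genes. The cells were CUTLL1, a line derived from human T-cell acute lymphoblastic leukaemia, in which a rearranged NOTCH1 gene keeps Notch signalling on. Poly-A RNA was sequenced from 12 libraries in 4 groups of 3: cells given 1 µM Compound E, a gamma-secretase inhibitor (GSI) that blocks the release of the active part of NOTCH1, and harvested after 48 h; cells given the solvent DMSO for 48 h; cells given Compound E for 12 h; and cells given DMSO for 12 h. All groups are 1 cell line without any other stated alteration, and the labels do not say whether the replicates were separate cultures, so the p-values reflect only how far these libraries spread.

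Interleukin receptors are built from shared and private chains that have no enzyme of their own and signal through JAK kinases to STAT factors. The common gamma chain IL2RG pairs with IL7R in the IL-7 receptor, with IL2RB in the IL-2 and IL-15 receptors, with IL4R in a receptor for IL-4 and with IL21R in the IL-21 receptor. IL2RA raises the affinity of the IL-2 receptor and does not signal by itself. IL6ST, also called gp130, is the signalling chain shared by the IL-6 family, and IL10RA is the ligand-binding chain of the IL-10 receptor. TGFBR2 binds TGF-beta and recruits TGFBR1, and these serine and threonine kinases then activate SMAD proteins. IL-7 sustains T-cell progenitors and many T-cell leukaemias, IL7R is a known target of NOTCH1 in T-cell progenitors and leukaemia, and TGF-beta restrains the growth of T cells.

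To show the promoters of the members on which the results below turn, the 250 bases before the annotated start were read from RefSeq (GRCh38.p14), for IL7R as the known NOTCH1 target, for IL2RG as the member with the highest level, for IL10RA as the called member with the largest fold change and for TGFBR2 as the member called in 4 comparisons. The windows are chr5:35856641-35856890 (plus strand), chrX:71111578-71111827 (minus strand), chr11:117989695-117989944 (plus strand) and chr3:30606106-30606355 (plus strand, 1 of 2 starts listed), each printed 5′ to 3′ on the strand of the gene. Capitals mark matches to TGGGAA, the core bound by the Notch partner RBPJ, or to ACGTG, the core of the hypoxia response element, on either strand.
IL7R: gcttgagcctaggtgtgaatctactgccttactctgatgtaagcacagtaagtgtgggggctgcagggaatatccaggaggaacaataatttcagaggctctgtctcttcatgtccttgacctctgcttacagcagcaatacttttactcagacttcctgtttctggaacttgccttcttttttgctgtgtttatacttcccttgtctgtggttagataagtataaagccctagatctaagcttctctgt
IL2RG: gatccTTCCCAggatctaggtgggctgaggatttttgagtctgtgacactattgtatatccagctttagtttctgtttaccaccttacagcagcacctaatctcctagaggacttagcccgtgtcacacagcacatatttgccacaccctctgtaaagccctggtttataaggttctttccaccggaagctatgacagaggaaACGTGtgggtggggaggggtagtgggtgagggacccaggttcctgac
IL10RA: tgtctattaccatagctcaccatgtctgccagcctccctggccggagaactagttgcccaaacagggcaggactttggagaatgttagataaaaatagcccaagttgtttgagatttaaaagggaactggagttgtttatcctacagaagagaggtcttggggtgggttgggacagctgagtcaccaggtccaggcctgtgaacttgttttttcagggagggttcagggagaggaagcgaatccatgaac
TGFBR2: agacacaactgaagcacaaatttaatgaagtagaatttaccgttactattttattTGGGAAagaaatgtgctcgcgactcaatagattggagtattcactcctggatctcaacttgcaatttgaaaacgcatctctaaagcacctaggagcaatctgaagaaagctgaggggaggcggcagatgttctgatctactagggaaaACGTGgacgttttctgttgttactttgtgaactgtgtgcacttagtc

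Both IL2RG and TGFBR2 held 1 match to TGGGAA, 245 and 195 bases before their starts, and 1 match to ACGTG, in each gene 47 bases before the start. The IL7R and IL10RA windows held neither, and none of the 4 windows held TTCNNNGAA, the letters bound by STAT factors. Of 35116 promoter windows of the same length in the RefSeq table, 20.8% held TGGGAA, 18.5% held ACGTG and 6.57% held TTCNNNGAA. In the windows of the other members a match was found at 1 of the 8 starts listed for TGFBR1, to ACGTG, 49 bases before the start, and there was none at the other start of TGFBR2 or for IL2RA, IL4R, IL6ST or IL21R. IL2RB has no entry. A match is a description of the letters and does not show that a factor binds there.

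Known NOTCH1 target genes were read first, as a check of the labels. NRARP, a feedback inhibitor of Notch, averaged 1701 ± 337 normalised read counts (SD, n = 3) in libraries labelled GSI 48 h and 3030.0 ± 627 in those labelled DMSO 48 h, against 21930 ± 4507 under GSI 12 h and 42352 ± 6407 under DMSO 12 h (SD, n = 3 each). Of 16 listed targets, a list that includes IL7R, 7 fell in GSI against DMSO at 12 h and 3 at 48 h, while 11 fell in DMSO at 48 h against DMSO at 12 h. Called lower in these comparisons were 2201, 1032 and 483 of all 19281 genes. In DMSO at 48 h against GSI at 12 h, 12 of the 16 fell and 1 rose, beside 1210 and 1066 of all genes. Most Notch targets were thus lower under the DMSO 48 h label than under the GSI 12 h label, while NRARP, DTX1 and NOTCH1 had lower means under GSI within each time. HES1 had a higher mean under GSI at 12 h (5316 ± 1632 against 4664 ± 260) and a lower one at 48 h (2356 ± 266 against 2993 ± 572). The part of time in culture and of the labels in the order of the groups was not tested. Every group below is named by its label only. Recovered totals were 73939612 to 160702764 reads per library. Of 16 T-lineage markers 15 passed the filter on low values, with summed counts of 626886 to 767854 per library. Markers of other cells were low: MS4A1 of B cells was at 0 in every library, 4 of 8 myeloid markers passed with sums of 211 to 547, and the erythroid and the stromal and epithelial lists had 1 gene each that passed, with sums of at most 44.6 and 48.4. The B-cell list passed with CD79A alone (sums of 662 to 3045) and the natural killer list with 4 of 5 genes, mostly NKG7 (2099 to 5805). The 4 regulatory T-cell markers, which include IL2RA, summed to 29215 to 65452, nearly all of it IKZF2. The part of these markers in the results was not tested. In bulk RNA, fewer cells of a type and less RNA per cell cannot be told apart.

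Levels were compared between genes per kilobase of merged exon (normalised read count per kb), with exon lengths from GENCODE release 29. IL2RG was the highest member under every label, with group means of 21992 per kb under GSI 48 h, 21986 under DMSO 48 h, 21700 under GSI 12 h and 19461 under DMSO 12 h. IL7R came next, at 4167 per kb under GSI 48 h and 5502 under DMSO 48 h, against 6379 under GSI 12 h and 6054 under DMSO 12 h. The TGF-beta receptor pair followed. TGFBR2 and TGFBR1 were at 1472 and 876 per kb under GSI 48 h, where their libraries did not overlap, and at 858 and 848 per kb under DMSO 12 h, where they did. IL2RB (561 per kb under DMSO 12 h) and IL4R (302) stood below them, then IL6ST (51.2) and IL10RA (39.9), which overlapped under every label, and IL21R (16.8). IL2RA was the lowest member under every label, at 2.98 to 6.16 per kb.

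**Figure D1:**
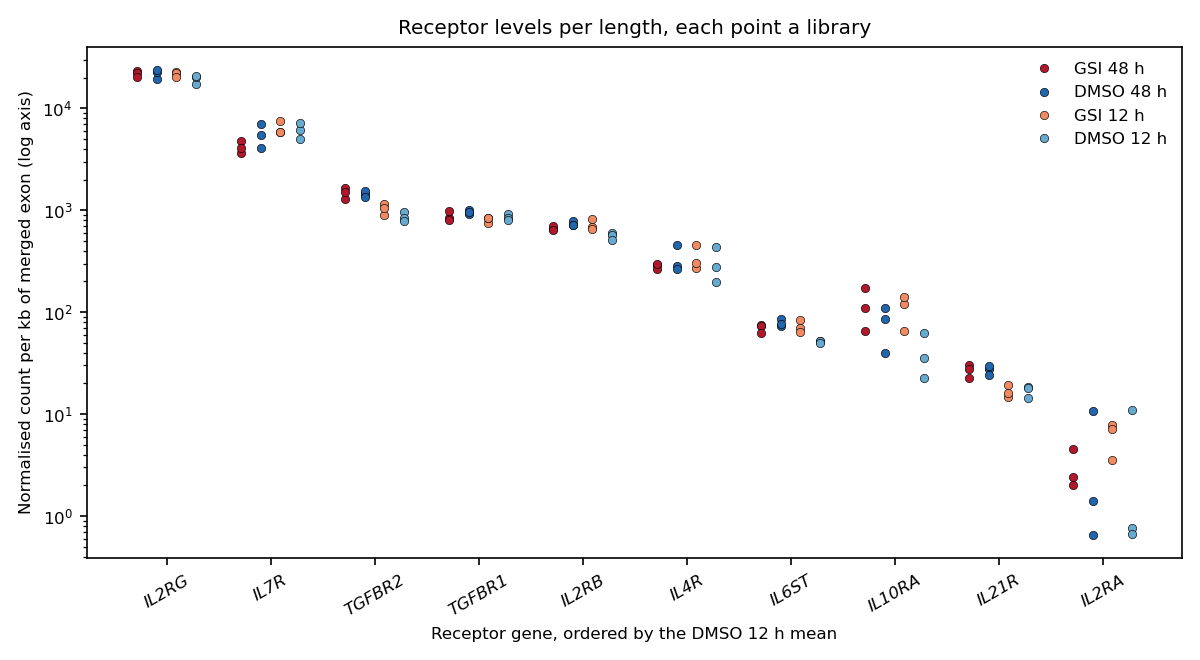
Normalised read count per kb of merged exon (log axis) for the 10 receptor genes, each point 1 library, coloured by label and ordered by the mean under the DMSO 12 h label. IL2RG lies highest, at group means of 19461 to 21992 per kb, and IL2RA lowest, at 2.98 to 6.16 per kb.

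Differences were tested with limma on log2(normalised read count + 1), with Benjamini-Hochberg adjustment over 19281 genes, and a gene was called at an adjusted p under 0.05. Every adjusted p below comes from this fit unless another is named. Fold changes are on that log2 scale, SE is limma's moderated standard error, and groups are said not to overlap when all 3 libraries of one lie above all 3 of the other.

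In GSI against DMSO at 12 h, 3 of 10 members rose and none fell, beside 10.1% of all genes called higher and 11.4% called lower. They were IL10RA, IL6ST and IL2RB. The same 3 were the members whose groups did not overlap, beside 36.3% of all genes. In GSI against DMSO at 48 h, none of the 10 was called, beside 9.68% of all genes called in either direction, and none had an unadjusted p under 0.05, beside 29.9% of all genes. The all-gene count of 1866 there was 136 without GSI 48 h replicate 1, 3036 without its replicate 2 and 119 without its replicate 3, and 204, 405 and 889 without DMSO 48 h replicate 1, 2 or 3. With a block on replicate number it was 5261, and still no member was called, and edgeR and DESeq2 on recovered reads also called none of them. IL2RB was then the only member without overlap, beside 35.4% of all genes. The median of the members' log2 fold changes was 0.24 at 12 h and -0.08 at 48 h, with a median of all genes of 0.00 at both times.

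Over time, DMSO at 48 h against DMSO at 12 h had 3 members called, all higher (TGFBR2, IL6ST and IL2RB), beside 2.03% of all genes called higher, and 5 of 10 did not overlap, beside 24.3%. GSI at 48 h against GSI at 12 h had 1 member called, TGFBR2, higher, beside 1.62%, and 3 did not overlap, beside 19.9%. Since libraries of the same number deviated together over time within a treatment, a fit with a replicate block within treatment was also made. With it, 7 members were called higher in DMSO over time, beside 13.9% of all genes called higher. In GSI over time TGFBR2 and IL21R were then called higher, beside 12.6% of all genes, and IL7R lower, beside 16.1%. The members' median was 0.32 in DMSO over time and -0.01 in GSI over time, and that of all genes was 0.00 in both.

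GSI at 48 h against DMSO at 12 h, in which 15 of the 16 listed NOTCH1 targets fell, had 5 members called. TGFBR2, IL21R, IL6ST and IL10RA rose, beside 15.8% of all genes called higher, and IL7R fell, beside 18.4% called lower, while 6 of 10 did not overlap, beside 48.7%. In DMSO at 48 h against GSI at 12 h, TGFBR2 and IL21R rose, beside 5.53% of all genes called higher, and 3 members did not overlap, beside 30.4%. These comparisons share their groups with those above, so the counts are not independent of each other. The members' median was 0.35 in the first and 0.03 in the second, and that of all genes was 0.01 in both. With upper-quartile scaling the all-gene split in GSI 48 h against DMSO 12 h was 4279 higher and 2525 lower in place of 3056 and 3546. That scaling moved the median of all genes by 0.12, and 6 members were then called, IL2RB and IL2RG in and IL7R out.

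**Figure D2:**
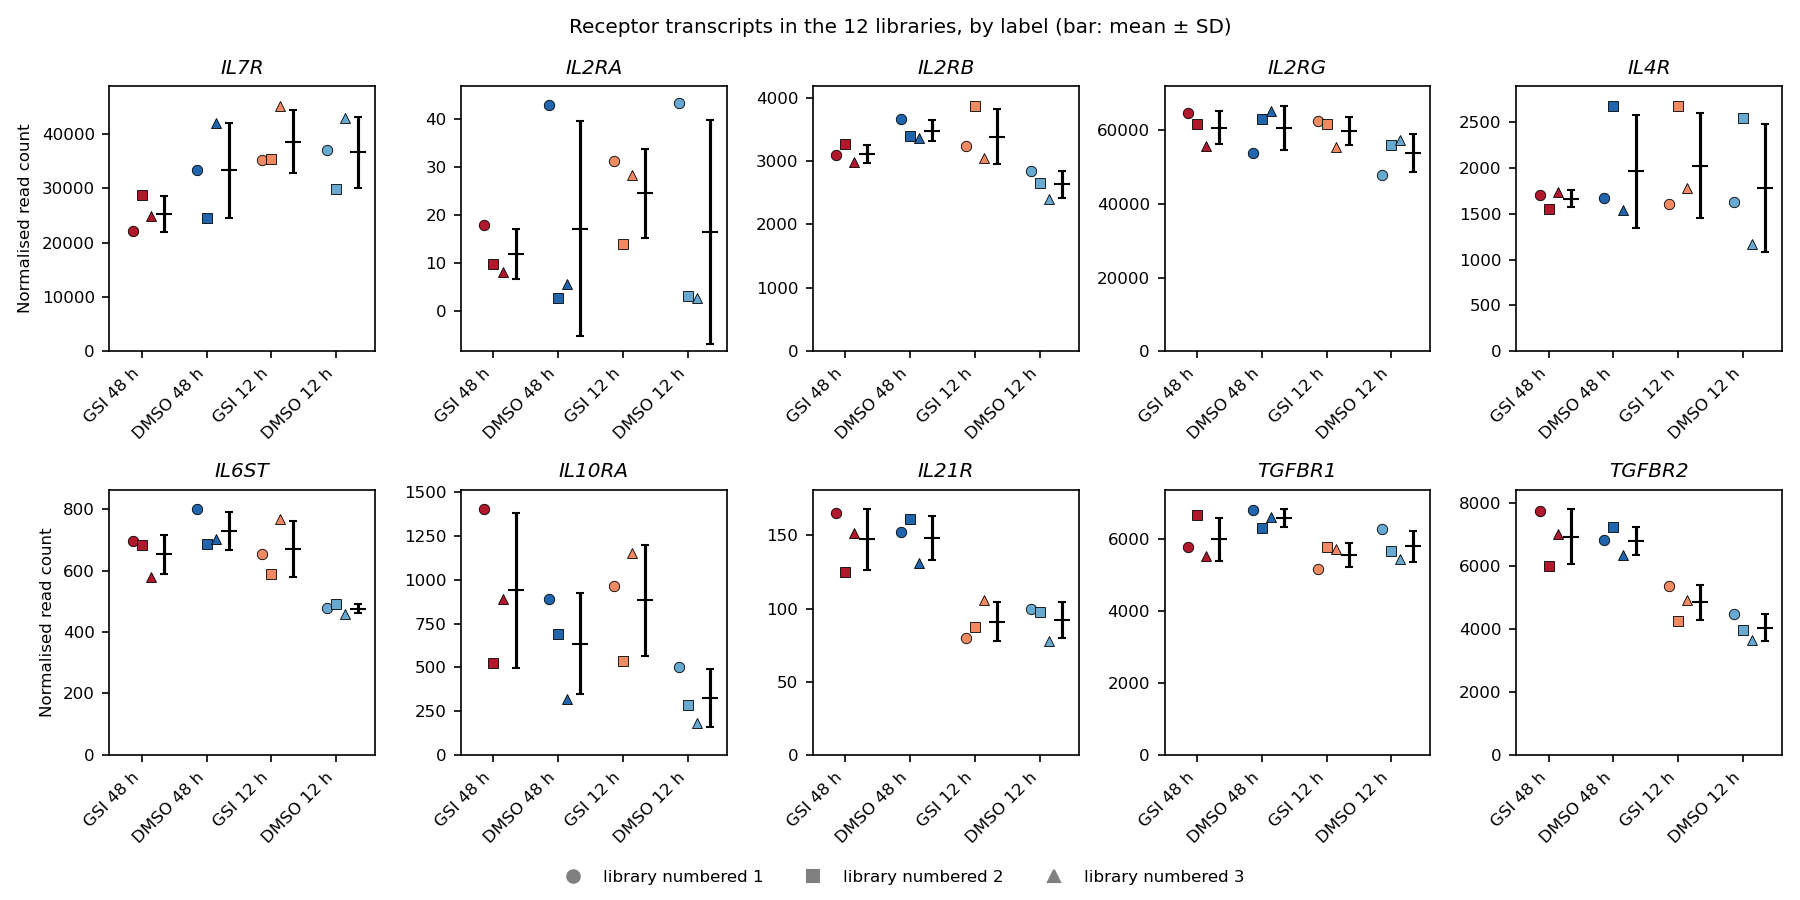
Normalised read count of each receptor gene in the 12 libraries, grouped by label, with the marker shape giving the library number and a bar at the mean ± SD (n = 3). TGFBR2 and IL21R lie higher under both 48 h labels than under both 12 h labels, and IL6ST and IL10RA are lowest under the DMSO 12 h label. The axis of IL2RA reaches below 0 only to show its SD.

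IL2RG (ENSG00000147168, chromosome X), the common gamma chain, was called in none of the 6 comparisons of groups in the fit without a block. IL2RG had normalised read counts of 64699.6, 61663 and 55733 in the 3 libraries labelled GSI 48 h, against 53860.5, 62993 and 65191 in those labelled DMSO 48 h. Libraries labelled GSI 12 h had 62535, 61655 and 55485, against 47812, 55953 and 57371 in those labelled DMSO 12 h. All pairs of groups overlapped, and the adjusted p lay between 0.188 and 0.99 in the 6 comparisons of groups. With the replicate block within treatment IL2RG was called in DMSO over time (log2 fold change 0.18, adjusted p = 0.00318), each 48 h library lying above the 12 h library of its own number. With upper-quartile scaling it was called in GSI at 48 h against DMSO at 12 h (log2 fold change 0.30, adjusted p = 0.0228). An annotated protein-coding gene, AL590764.2, shares 1403 exon bases with IL2RG, and reads there cannot be told apart. AL590764.2 is not among the genes of the deposited table.

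IL7R (ENSG00000168685, chromosome 5), the private chain of the IL-7 receptor, was lowest under the GSI 48 h label. IL7R had normalised read counts of 22088, 28777 and 24896 in the 3 libraries labelled GSI 48 h, against 33344, 24607 and 42083 in those labelled DMSO 48 h. Under the 12 h labels IL7R had 35223, 35472 and 45271 with GSI, against 37141, 29931 and 42995 with DMSO. GSI 48 h did not overlap with either 12 h group, and it overlapped with DMSO 48 h because the DMSO library numbered 2 lay below the GSI libraries numbered 2 and 3. IL7R fell in GSI at 48 h against DMSO at 12 h (log2 fold change -0.53 ± 0.18 SE, adjusted p = 0.0393), a call that was lost with upper-quartile scaling (adjusted p = 0.120), without the filter on low values, or without GSI 48 h replicate 1 or 3 or DMSO 12 h replicate 1 or 3. In GSI over time the difference was not called without a block (log2 fold change -0.61 ± 0.18 SE, adjusted p = 0.0896) and was called with the block within treatment (adjusted p = 0.000298), with a block on replicate number alone (adjusted p = 0.0271), by DESeq2 (adjusted p = 0.0326) and without DMSO 48 h replicate 2 (adjusted p = 0.0474). The treatment comparisons gave no call at 48 h (log2 fold change -0.38 ± 0.18 SE, adjusted p = 0.188; -0.58 without DMSO 48 h replicate 2 and -0.19 without its replicate 3) or at 12 h (log2 fold change 0.08 ± 0.18 SE, adjusted p = 0.782), and DMSO over time gave none either (log2 fold change -0.16 ± 0.18 SE, adjusted p = 0.777).

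IL2RB (ENSG00000100385, chromosome 22), the chain shared by the IL-2 and IL-15 receptors, was lowest under the DMSO 12 h label. IL2RB had normalised read counts of 3094, 3270.5 and 2991 in the 3 libraries labelled GSI 48 h, against 3667, 3393 and 3368 in those labelled DMSO 48 h. At the earlier time the counts were 3231, 3876 and 3046 under the GSI 12 h label, against 2839, 2659 and 2408 under the DMSO 12 h label. It rose in GSI against DMSO at 12 h (log2 fold change 0.36 ± 0.10 SE, adjusted p = 0.0281) and in DMSO at 48 h against 12 h (log2 fold change 0.40 ± 0.10 SE, adjusted p = 0.0445). At 48 h all 3 GSI libraries lay below all 3 DMSO libraries, a difference that was not called (log2 fold change -0.16 ± 0.10 SE, adjusted p = 0.326), and the difference of GSI 48 h from DMSO 12 h was not called either (log2 fold change 0.25 ± 0.10 SE, adjusted p = 0.0829) although those groups did not overlap. That last difference was called with a block on replicate number (adjusted p = 0.0300), without GSI 12 h replicate 2 (adjusted p = 0.0450) and with upper-quartile scaling (adjusted p = 0.0127). The 12 h call was lost without GSI 12 h replicate 1 or 2 or DMSO 12 h replicate 2 or 3 and in a fit of the compared groups alone, and the call over time was lost when any of 9 of the 12 libraries was left out and without the filter on low values (adjusted p = 0.0706).

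IL2RA (ENSG00000134460, chromosome 10), the high-affinity chain of the IL-2 receptor, was close to the filter. IL2RA had normalised read counts of 17.8, 9.65 and 7.98 in the 3 libraries labelled GSI 48 h, against 42.8, 2.60 and 5.61 in those labelled DMSO 48 h. Libraries labelled GSI 12 h had 31.1, 13.9 and 28.2, against 43.3, 3.00 and 2.65 in those labelled DMSO 12 h. The libraries numbered 1 under both DMSO labels, with 54 and 49 recovered reads, stood apart from the other 4 DMSO libraries, which had 3 to 5 reads. IL2RA was called in none of the 6 comparisons of groups, with adjusted p between 0.281 and 0.954. Without DMSO 12 h replicate 1 it was called in GSI against DMSO at 12 h (adjusted p = 0.0462).

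IL4R (ENSG00000077238, chromosome 16), the IL-4-binding chain, was called in no comparison of groups. IL4R had normalised read counts of 1699, 1555 and 1734 in the 3 libraries labelled GSI 48 h, against 1667, 2669.9 and 1545 in those labelled DMSO 48 h. Under the 12 h labels IL4R had 1609, 2679 and 1784 with GSI, against 1631, 2544 and 1164 with DMSO. The library numbered 2 was the highest of its group under DMSO 48 h, GSI 12 h and DMSO 12 h and the lowest under GSI 48 h. All groups overlapped, and the adjusted p lay between 0.579 and 0.954. Without strand, reads of an antisense gene that shares 339 exon bases cannot be told apart from IL4R. That antisense gene is not among the genes of the deposited table.

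IL21R (ENSG00000103522, chromosome 16), the private chain of the IL-21 receptor, separated the 48 h labels from the 12 h labels. IL21R had normalised read counts of 165, 125 and 152 in the 3 libraries labelled GSI 48 h, against 152, 161 and 131 in those labelled DMSO 48 h. At the earlier time the counts were 79.7, 87.3 and 106 under the GSI 12 h label, against 99.95, 97.9 and 77.8 under the DMSO 12 h label. Both 48 h groups lay above both 12 h groups without overlap. It rose in GSI at 48 h against DMSO at 12 h (log2 fold change 0.67 ± 0.19 SE, adjusted p = 0.0163) and in DMSO at 48 h against GSI at 12 h (log2 fold change 0.70 ± 0.19 SE, adjusted p = 0.0342). The first call was lost without GSI 48 h replicate 1 or 3 or DMSO 12 h replicate 3, and the second without DMSO 48 h replicate 1 or 2 or GSI 12 h replicate 1, without the filter on low values or in a fit of the compared groups alone. Within a treatment the difference was not called without a block, in DMSO (log2 fold change 0.69 ± 0.19 SE, adjusted p = 0.0605) or in GSI (log2 fold change 0.69 ± 0.19 SE, adjusted p = 0.066), and it was called with the block within treatment (adjusted p = 0.00296 in DMSO and 0.00323 in GSI), with a block on replicate number alone (0.0331 and 0.0377) and by DESeq2 (0.00980 and 0.0185). Between treatments the adjusted p was 0.971 at 48 h and 0.966 at 12 h. The antisense gene IL21R-AS1 shares 1273 exon bases with IL21R and averaged 12.7 normalised read counts over the 12 libraries, and without strand their reads cannot be told apart. The protein-coding gene before IL21R on the chromosome is IL4R, 37.4 kb away in GRCh38.p14 with none between. The gap on the other side was not measured. The log2 levels of IL4R had a Pearson r of 0.14 with those of IL21R over the 12 libraries, which share their 4 groups.

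IL6ST (ENSG00000134352, chromosome 5), the gp130 chain of the IL-6 family receptors, was lowest under the DMSO 12 h label. IL6ST had normalised read counts of 698, 682 and 579 in the 3 libraries labelled GSI 48 h, against 800.4, 685 and 704 in those labelled DMSO 48 h. Libraries labelled GSI 12 h had 653, 589.7 and 769.7, against 479, 489.6 and 459 in those labelled DMSO 12 h. Each of the other 9 libraries lay above all 3 DMSO 12 h libraries. IL6ST rose in GSI against DMSO at 12 h (log2 fold change 0.49 ± 0.13 SE, adjusted p = 0.0205), in DMSO at 48 h against 12 h (log2 fold change 0.61 ± 0.13 SE, adjusted p = 0.0174) and in GSI at 48 h against DMSO at 12 h (log2 fold change 0.45 ± 0.13 SE, adjusted p = 0.0177). The groups overlapped at 48 h (adjusted p = 0.422). The 12 h call was lost without GSI 12 h replicate 1 or 3 or DMSO 12 h replicate 2 or 3 and in a fit of the compared groups alone. The call in DMSO over time was lost without DMSO 48 h replicate 1 or 3 or DMSO 12 h replicate 2 or 3, and that of GSI 48 h against DMSO 12 h without GSI 48 h replicate 1 or DMSO 12 h replicate 3. A processed pseudogene of IL6ST exists, and the counting may split reads between them.

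IL10RA (ENSG00000110324, chromosome 11), the ligand-binding chain of the IL-10 receptor, had the largest fold changes of the called members. IL10RA had normalised read counts of 1404, 525 and 891 in the 3 libraries labelled GSI 48 h, against 888, 691 and 319.8 in those labelled DMSO 48 h. Under the 12 h labels IL10RA had 964, 533 and 1152 with GSI, against 503, 285 and 181 with DMSO. The 3 GSI 12 h libraries lay above all DMSO 12 h libraries, and the 48 h groups overlapped. IL10RA rose in GSI against DMSO at 12 h (log2 fold change 1.50 ± 0.46 SE, adjusted p = 0.0339) and in GSI at 48 h against DMSO at 12 h (log2 fold change 1.55 ± 0.46 SE, adjusted p = 0.0191). The 12 h call was lost without GSI 12 h replicate 1 or 3 or DMSO 12 h replicate 2 or 3, and the other without GSI 48 h replicate 1 or 3 or DMSO 12 h replicate 2 or 3. In DMSO over time it was not called without a block (log2 fold change 0.97 ± 0.46 SE, adjusted p = 0.295) and was called with the block within treatment (adjusted p = 0.00047), each 48 h library again lying above the 12 h library of its number.

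Hypoxia response genes were read beside IL10RA. In this list of 30 genes, which an earlier analysis of these data drew up after seeing them, 26 rose and none fell in GSI against DMSO at 12 h, and 13 rose and none fell at 48 h. Of all 19281 genes, 1943 were called higher at 12 h and 834 at 48 h. The median log2 level of the list, relative to its mean over all libraries, stood at 1.10, -0.17 and 0.58 in libraries 1 to 3 labelled GSI 48 h, against -0.84, -0.98 and -0.62 in the DMSO 48 h libraries. At 12 h it was 1.55, 0.20 and 1.75 under the GSI label, against -0.85, -0.83 and -0.70 under the DMSO label. The library numbered 2 had the lowest hypoxia median and the lowest IL10RA count under both GSI labels. Among the DMSO libraries the list varied little, while IL10RA ranged from 181 to 888. In DMSO over time the median log2 fold change of the list was -0.01 and that of IL10RA 0.97. In GSI over time the values were -0.57 and 0.05. The part of hypoxia genes in the IL10RA result was not tested. Without both GSI libraries numbered 2, IL10RA and IL6ST were still called in GSI against DMSO at 12 h, while IL2RB was not and TGFBR2 was.

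**Figure D3:**
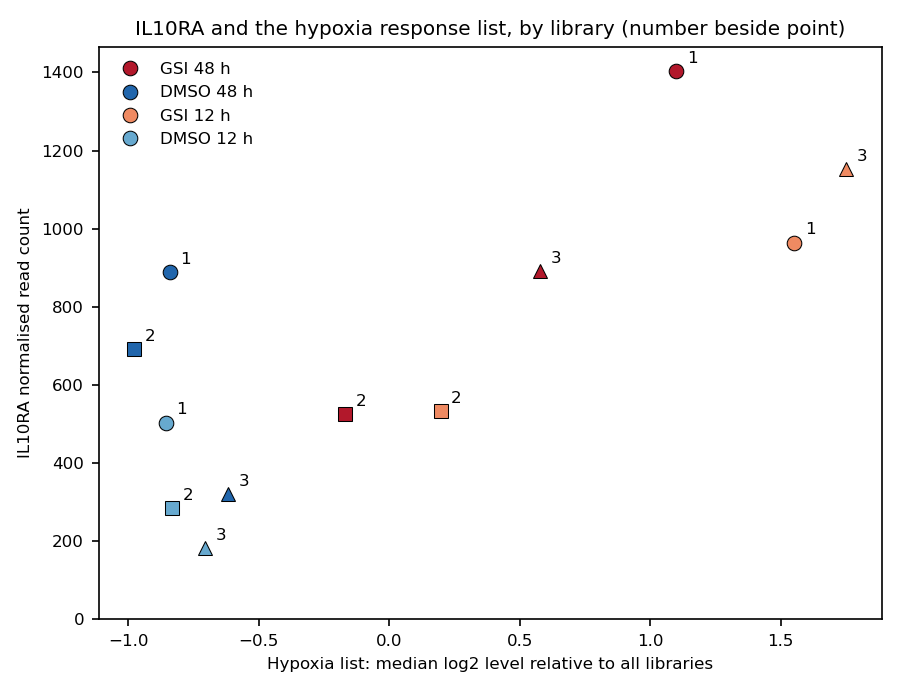
Normalised read count of IL10RA against the median log2 level of the 30 hypoxia response genes relative to all libraries, 1 point per library, with colour for the label and the library number beside the point. Under each GSI label the library numbered 2 is lowest on both axes, at 525 and 533 counts, and the DMSO libraries lie between -0.98 and -0.62 on the hypoxia axis at counts of 181 to 888.

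TGFBR2 (ENSG00000163513, chromosome 3), the ligand-binding TGF-beta receptor kinase, rose in each of the 4 comparisons of a 48 h label with a 12 h label. TGFBR2 had normalised read counts of 7746, 6001 and 7026 in the 3 libraries labelled GSI 48 h, against 6808, 7224 and 6339 in those labelled DMSO 48 h. At the earlier time the counts were 5352, 4234 and 4923 under the GSI 12 h label, against 4482, 3974 and 3649 under the DMSO 12 h label. Both 48 h groups lay above both 12 h groups without overlap. The fold change was largest in GSI at 48 h against DMSO at 12 h (log2 fold change 0.78 ± 0.12 SE, adjusted p = 0.000403) and in DMSO at 48 h against 12 h (log2 fold change 0.75 ± 0.12 SE, adjusted p = 0.00268), calls that held without any 1 of the 12 libraries. In GSI over time (log2 fold change 0.52 ± 0.12 SE, adjusted p = 0.0268) the call was lost without GSI 48 h replicate 1 or 3, without GSI 12 h replicate 2 or in a fit of the compared groups alone. In DMSO at 48 h against GSI at 12 h (log2 fold change 0.49 ± 0.12 SE, adjusted p = 0.0208) it was lost without DMSO 48 h replicate 1 or 2. Between treatments TGFBR2 was not called at 48 h (adjusted p = 0.921) or at 12 h (log2 fold change 0.26 ± 0.12 SE, adjusted p = 0.13), though it was called at 12 h without GSI 12 h replicate 2 (adjusted p = 0.0458).

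TGFBR1 (ENSG00000106799, chromosome 9), the kinase that TGFBR2 recruits, had its highest mean under the DMSO 48 h label, with no call between groups. TGFBR1 had normalised read counts of 5789, 6669 and 5532 in the 3 libraries labelled GSI 48 h, against 6818, 6310.0 and 6607 in those labelled DMSO 48 h. Libraries labelled GSI 12 h had 5165, 5781 and 5711, against 6283, 5675 and 5452 in those labelled DMSO 12 h. The DMSO 48 h libraries lay above all libraries of both 12 h groups, while GSI 48 h overlapped with every other group. No comparison of groups called it, with adjusted p between 0.0974 and 0.738, the smallest in DMSO at 48 h against GSI at 12 h (log2 fold change 0.25 ± 0.09 SE, adjusted p = 0.0974). With the block within treatment it was called in DMSO over time (log2 fold change 0.18, adjusted p = 0.0285).

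**Figure D4:**
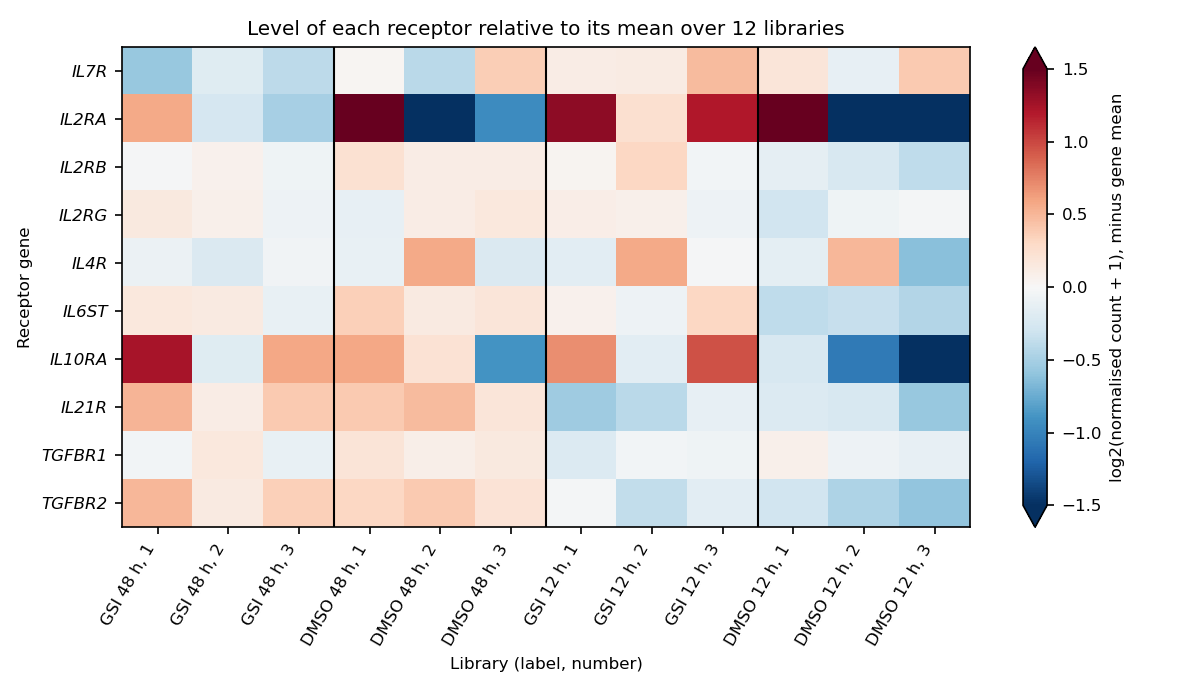
Level of each receptor gene in each library as log2(normalised read count + 1) minus the mean of that gene over 12 libraries, with red above and blue below the mean and columns grouped by label. TGFBR2 and IL21R are above their means in all 6 libraries with 48 h labels, and IL6ST is below its mean in all 3 DMSO 12 h libraries.

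Whether the treatment difference changed between 12 and 48 h was tested as an interaction. It called none of the 10 members and 0 of 19281 genes (0.00%), with 875 genes and 2 members, IL2RB and IL6ST, at an unadjusted p under 0.05, and edgeR and DESeq2 called no member (over all genes, edgeR called 0 and DESeq2 61). With the block within treatment 4 members were called lower, beside 4.12% of all genes called lower, while a block on replicate number alone called no member and 40 genes. The difference of log2 fold changes, 48 h minus 12 h, was then -0.51 for IL2RB (adjusted p = 0.00381), -0.92 for IL10RA (adjusted p = 0.0260), -0.65 for IL6ST (adjusted p = 0.0320) and -0.46 for IL7R (adjusted p = 0.0467).

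Genes with the most similar levels were sought among 12452 genes with a symbol and a mean of at least 100, by Pearson r of log2 levels over the 12 libraries, which share their groups, and the 3 highest were taken for each member. IL10RA was closest to SIRPG-AS1 (r = 0.97), ISG20 (0.96) and LTBP3 (0.95). The highest r for TGFBR2 was 0.96, with JARID2. IL21R was closest to MVB12B, SUSD6 and CEMIP2 (0.94 each). IL7R was closest to DIAPH2 (0.92), MCM5 (0.90) and CAPSL (0.90). CAPSL is the gene next to IL7R, 24.7 kb away in GRCh38.p14 with no protein-coding gene between, and it had 104, 281 and 145 normalised read counts under GSI 48 h, against 388, 191 and 468 under DMSO 48 h. At 12 h CAPSL had 422, 558 and 424 under GSI, against 611, 353 and 816 under DMSO. For the other members the highest r was 0.93 for IL2RB with IQGAP2, 0.93 for IL2RG with HSD17B4, and 0.92 for IL4R with PARP14, for IL6ST with GPR107 and for TGFBR1 with ARL6IP1. IL2RA, with a mean of 17.4, was not searched. Among pairs of members r was highest for TGFBR2 with IL21R (0.90), then TGFBR2 with IL6ST (0.71) and IL6ST with IL2RB (0.70), and lowest for IL7R with IL21R (-0.66).

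The other genes of these pathways were read from lists in the same fit. Each list is described by its counts and by some of its genes of smallest p, with log2 fold changes ± SE in parentheses. Of all 19281 genes, 10.1% were called higher and 11.4% lower in GSI against DMSO at 12 h. At 48 h 834 genes were called higher and 1032 lower. In GSI at 48 h against DMSO at 12 h 15.8% were called higher and 18.4% lower. Those groups differ in both treatment and time, and the part of each was not tested. Of 44 other cytokine receptor chains 26 passed the filter. At 12 h 2 rose and 1 fell, IFNGR1 (0.62 ± 0.10, adjusted p = 0.00289) of the interferon gamma receptor, IL10RB (0.70 ± 0.13, adjusted p = 0.00431), the partner of IL10RA in the IL-10 receptor, and IL17RB (-0.44 ± 0.12, adjusted p = 0.0236). At 48 h none rose and 5 fell in GSI against DMSO, among them both chains of the IL-18 receptor. IL18R1 was at 15.0 ± 1.98 under the GSI 48 h label and 51.6 ± 10.2 under the DMSO 48 h label, IL18RAP at 0.67 ± 0.64 under the GSI 48 h label and 29.3 ± 24.0 under the DMSO 48 h label and IL1RAP, a chain of the IL-1 receptor, at 1428 ± 96.1 under the GSI 48 h label and 2235 ± 335 under the DMSO 48 h label (SD, n = 3 each), with adjusted p of 0.00309, 0.00309 and 0.0209. The list median was 0.04 at 12 h and -0.06 at 48 h.

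Of 15 interleukin ligands of the members 11 passed. At 12 h 3 rose and 2 fell, led by IL2 (1.61 ± 0.36, adjusted p = 0.00962), OSM (-1.03 ± 0.27, adjusted p = 0.0182) and TSLP (0.67 ± 0.19, adjusted p = 0.0272), and at 48 h none was called. IL2, the gp130 ligand OSM and TSLP, which signals through IL7R, all had means under 100 at 12 h. In GSI at 48 h against DMSO at 12 h 1 rose and 2 fell, with IL4, the ligand of IL4R, at 426 ± 147 under the GSI 48 h label and 2281 ± 604 under the DMSO 12 h label (log2 fold change -2.44, adjusted p = 0.000173). The list median was 0.11 at 12 h, -0.04 at 48 h and 0.05 in that comparison.

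Of 29 JAK-STAT transducers and feedback genes 27 passed. At 12 h 1 rose and 2 fell, IRS1 (-0.66 ± 0.14, adjusted p = 0.00733), PIAS3 (0.48 ± 0.12, adjusted p = 0.0155) and the phosphatase PTPN2 (-0.25 ± 0.07, adjusted p = 0.0321). At 48 h 1 rose and 3 fell, PTPN2 (-0.34 ± 0.07, adjusted p = 0.0199), STAT5B (0.72 ± 0.17, adjusted p = 0.0232) and the kinase JAK2 (-0.49 ± 0.13, adjusted p = 0.0319) having the smallest p. GSI at 48 h against DMSO at 12 h had 8 higher and 3 lower, led by PTPN2 (-0.69 ± 0.07, adjusted p = 3.52e-05), IRS1 (-0.83 ± 0.14, adjusted p = 0.000793) and STAT3 (0.55 ± 0.11, adjusted p = 0.00275). List medians were 0.03, -0.04 and -0.05.

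Of 21 STAT5 and IL-7 response genes 17 passed, and 2 rose and 3 fell at 12 h, 1 rose and 1 fell at 48 h, and 7 rose and 3 fell in GSI at 48 h against DMSO at 12 h. PIM1 (0.67 ± 0.15, adjusted p = 0.0101), a kinase induced by STAT5, rose at 12 h, and it rose at 48 h (0.68 ± 0.15, adjusted p = 0.0218). MYC (-0.53 ± 0.12, adjusted p = 0.0113) and PIM3 (-0.49 ± 0.12, adjusted p = 0.0146) fell at 12 h. BCL2 (-0.56 ± 0.14, adjusted p = 0.0279), a survival gene, fell at 48 h. The smallest p in GSI at 48 h against DMSO at 12 h were those of MYC (-1.48 ± 0.12, adjusted p = 5.99e-06), PIM1 (1.14 ± 0.15, adjusted p = 0.000162) and the cell-cycle inhibitor CDKN1B (0.75 ± 0.14, adjusted p = 0.00119). MYC is also on the NOTCH1 target list, and it fell in DMSO over time too (-1.14 ± 0.12, adjusted p = 0.000201). The list median was 0.12, 0.06 and 0.31 in the same order.

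Of 19 other TGF-beta superfamily receptors and coreceptors 13 passed, with 1 higher and 3 lower at 12 h, none higher and 1 lower at 48 h, and 2 higher and 2 lower in GSI at 48 h against DMSO at 12 h. TGFBRAP1, which binds TGF-beta receptors, fell at 12 h (-0.53 ± 0.10, adjusted p = 0.00522) and at 48 h (-0.37 ± 0.10, adjusted p = 0.0374), and BMPR2 (1.14 ± 0.19, adjusted p = 0.000771), the type II receptor for bone morphogenetic proteins, rose in GSI at 48 h against DMSO at 12 h. BMPR2 was also called higher at 12 h (0.68 ± 0.19, adjusted p = 0.0257) and in DMSO over time (0.87 ± 0.19, adjusted p = 0.0208). BMPR1B was at 4.43 ± 2.13 under the GSI 12 h label and 26.5 ± 13.9 under the DMSO 12 h label (SD, n = 3 each), also called lower at 12 h. Of 18 ligands 12 passed. At 12 h 1 fell, MSTN, at 1.59 ± 1.97 under GSI and 11.3 ± 6.78 under DMSO (SD, n = 3 each). The only ligand called at 48 h and in GSI 48 h against DMSO 12 h was BMP4, with 1299 ± 403 under the GSI 48 h label and 3200.1 ± 768 under the DMSO 48 h label at 48 h, and 12147 ± 1906 under DMSO 12 h (SD, n = 3 each). Receptor list medians were -0.29, -0.13 and -0.11, and ligand list medians 0.07, 0.08 and 0.22.

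All 23 SMAD signalling and feedback genes passed, with 1 higher and 3 lower at 12 h, 1 higher and 2 lower at 48 h, and 2 higher and 7 lower in GSI at 48 h against DMSO at 12 h. At 12 h the inhibitory SMAD rose, SMAD7 (1.25 ± 0.24, adjusted p = 0.00544), while the feedback genes SKIL (-0.67 ± 0.14, adjusted p = 0.0074) and PMEPA1 (-0.63 ± 0.14, adjusted p = 0.00923) fell. At 48 h PMEPA1 (-0.81 ± 0.14, adjusted p = 0.00892) and SKIL (-0.82 ± 0.14, adjusted p = 0.00918) fell and SMAD9 (0.48 ± 0.12, adjusted p = 0.0306) rose. Of 20 TGF-beta response genes, a list that shares SMAD7, SKIL and PMEPA1 with the last, 16 passed, with 2 higher and 5 lower at 12 h, 1 higher and 4 lower at 48 h, and 3 higher and 7 lower in GSI at 48 h against DMSO at 12 h. Beside the shared genes, SPSB1 (-0.73 ± 0.13, adjusted p = 0.00351) fell at 12 h, CDKN1A (-0.998 ± 0.26, adjusted p = 0.0339) fell at 48 h and ID1 (-2.09 ± 0.30, adjusted p = 0.00026) fell in GSI at 48 h against DMSO at 12 h. ID1 also fell in DMSO over time (-1.65 ± 0.30, adjusted p = 0.00649). BHLHE40, which also stands on the hypoxia list, rose at 12 h (4.16 ± 0.86, adjusted p = 0.00690). SMAD list medians were -0.10, -0.09 and -0.14, and response list medians 0.04, -0.33 and -0.35.

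**Figure D5:**
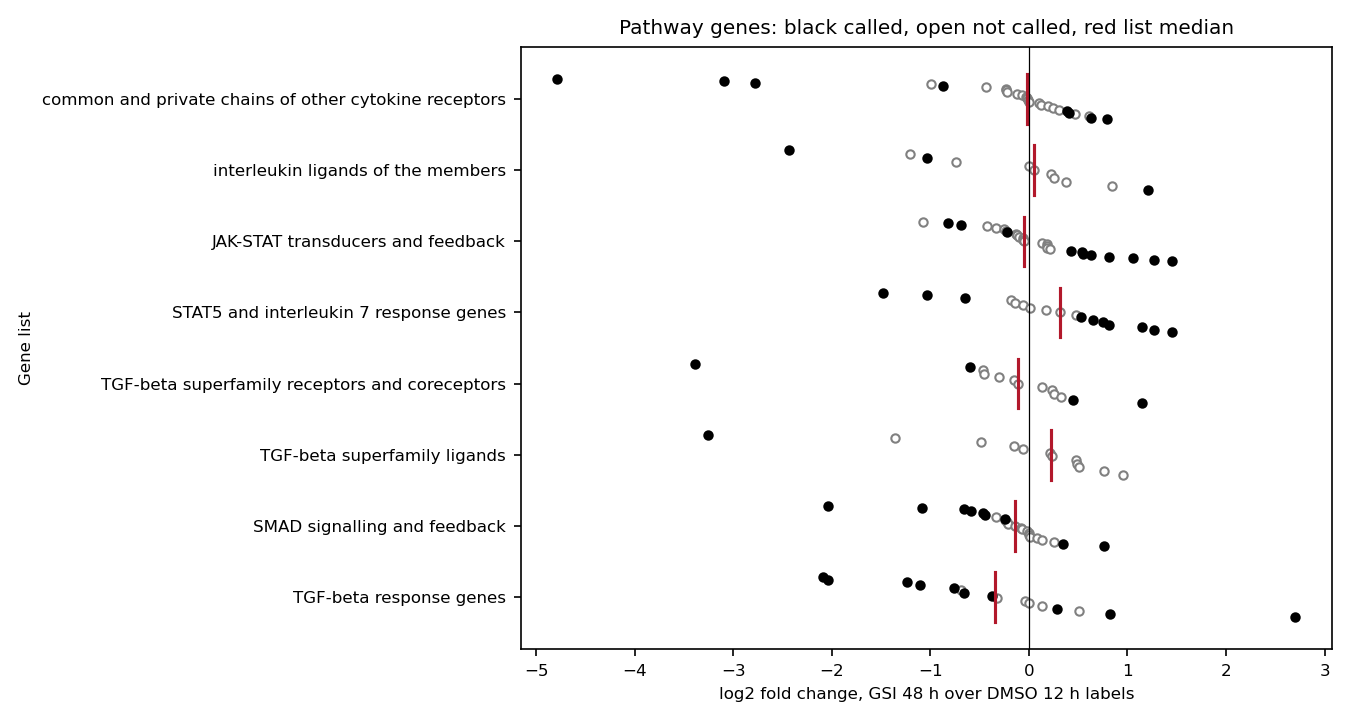
The log2 fold change of GSI 48 h over DMSO 12 h for each gene of the 8 pathway lists that passed the filter, with filled points called, open points not called and a red line at the list median. The compared groups differ in both treatment and time. The medians lie between -0.35 (TGF-beta response genes) and 0.31 (STAT5 and interleukin 7 response genes), and called genes lie on both sides of 0 in each list except the ligands of the TGF-beta superfamily, where 1 gene was called.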

How the data were processed

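RNA was measured in 12 CUTLL1 libraries grouped by treatment and time as labelled. The submitters' processing notes list DESeq2, HTSeq 0.6.1, TopHat2 2.0.10 and FastQC 0.10.1, with the build hg19. Settings, gene annotation and use of strand were not given in the sources used here. What the authors deposited is a signal: counts of reads in each gene, scaled by the size factor of each library. Whole reads were recovered from them, with 100% of the values whole within 0.01 and totals of 73939612 to 160702764 reads. A gene at the filter value of 10 thus rests on few reads.

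Kept were the 19281 of 62069 genes that reached 10 in 3 or more libraries. Differences were tested with limma 3.58.1 (R 4.3.3) on log2(value + 1) with a trended prior, all 12 libraries, a mean per group and no block. Alternatives were pseudocounts of 0.5 and 10, no filter, upper-quartile scaling, the compared groups alone, replicate blocks, edgeR 4.0.16 and DESeq2 1.42.0 on recovered reads, and libraries left out. The fit was tested on simulated data. Members, lists and the rule for named genes were chosen with earlier results of these data known. The rule named all members, the 3 genes of smallest p per list (2 where none is called), and the 3 genes of most similar level. Not every gene that the rule named is given in the text. Further list genes were chosen after their values were seen.

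The pairing of replicate numbers was checked by correlating deviations from group means. Same-numbered libraries correlated over time at 0.58, 0.61 and 0.54 in DMSO and at 0.40, 0.54 and 0.47 in GSI. The numbers were therefore taken to pair libraries over time within a treatment. Between treatments the values were 0.10, 0.16 and 0.10 at 48 h and 0.10, 0.27 and 0.07 at 12 h. These are low at both times. At 48 h each DMSO library correlated best with the GSI library of its own number. At 12 h this held for DMSO libraries 2 and 3, while library 1 correlated best with GSI library 3. The values do not settle whether the numbers pair treatments, and the labels describe no pairing. The block changed no call of a member between treatments at 48 h. Symbols came from a table of identifiers (39007 matched) and GENCODE release 29 (11393 more), and promoter sequences from RefSeq (GRCh38.p14). Files' coordinates are on hg19, so GENCODE, on a later build, served only for names, lengths and overlaps.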

Additional observations from a re-analysis of the deposited data

Results flagged for a closer look

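The fit with a replicate block within treatment found the treatment difference to change between 12 and 48 h in 4 of the 10 members, beside 4.12% of all genes called lower, as differences of log2 fold changes (48 h minus 12 h) of -0.513 for IL2RB, -0.648 for IL6ST, -0.920 for IL10RA and -0.456 for IL7R. The fit without a block called none of them, and neither did the fit with a block on replicate number alone, which called 0.207% of all genes. IL2RB was in addition higher in all 3 GSI libraries at 12 h and lower in all 3 at 48 h than in every DMSO library of that time, with a log2 fold change of -0.156 at 48 h, and this opposite direction was not tested beyond the differences above. The part of the hypoxia genes and of the labels in these values was not tested.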

How the results depend on the processing

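Leaving out each library in turn gave 0 to 4 members called (all genes 1599 to 5662) in GSI against DMSO at 12 h, 0 in each case (119 to 3036) at 48 h, 1 to 3 (353 to 1066) in DMSO over time, 0 to 2 (443 to 737) in GSI over time, 1 to 6 (4245 to 6980) in GSI at 48 h against DMSO at 12 h, 0 to 2 (564 to 3901) in DMSO at 48 h against GSI at 12 h and 0 in each case (0 to 4) for the change of the effect. At 12 h the count was 0 without GSI 12 h replicate 1 or DMSO 12 h replicate 2 or 3, and 1 without GSI 12 h replicate 3, with 1599, 1761, 3330 and 2341 of all genes called in these 4 fits in place of 4144. In DMSO over time it was 1 without DMSO 48 h replicate 1 or 3 or DMSO 12 h replicate 2 or 3. In GSI over time it was 0 without GSI 48 h replicate 1 or 3 or GSI 12 h replicate 2, and 2 without DMSO 48 h replicate 2. In GSI at 48 h against DMSO at 12 h it was 1 without GSI 48 h replicate 1 or DMSO 12 h replicate 3, and 2 without GSI 48 h replicate 3. In DMSO at 48 h against GSI at 12 h it was 0 without DMSO 48 h replicate 1 or 2, and 1 without GSI 12 h replicate 1. Fits of the compared groups alone, with fewer samples, called 1 member at 12 h, 0 in GSI over time and 1 in DMSO 48 h against GSI 12 h. The same fits called 2607, 477 and 1306 of all genes, in place of 4144, 768 and 2276. Without the filter the last member count was also 1, with 1576 of 36440 genes called. DESeq2 called 3 members in GSI over time, beside 1261 of all genes in place of 768. The replicate block called 3 there, beside 10.1% of all genes in place of 3.98%. The replicate block within treatment called 3 there, beside 28.8% of all genes. It called 7 in DMSO over time, beside 29.2%, and 4 for the change of the effect, beside 6.1%. The block on replicate number left the counts of members at 12 h (3) and at 48 h (0) as they were. With it the share of all genes called rose from 21.5% to 36.1% at 12 h and from 9.68% to 27.3% at 48 h. IL7R changed sign in GSI against DMSO at 12 h without GSI 12 h replicate 3 or DMSO 12 h replicate 2 (range -0.058 to 0.20 over the left-out libraries), and in DMSO over time without DMSO 48 h replicate 2 (range -0.34 to 0.046), neither being called. Apart from the construction of the fits named, the cause was not tested. With upper-quartile scaling the all-gene split was 2536 higher and 1585 lower at 12 h in place of 1943 and 2201, 1220 and 682 at 48 h in place of 834 and 1032, and 854 and 1434 in DMSO 48 h against GSI 12 h in place of 1066 and 1210. Depth limits IL2RA most, at 3 to 54 reads per library.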

Other observations

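Both chains of the IL-18 receptor were lowest under the GSI 48 h label. IL18R1, the ligand-binding chain, had 12.7, 16.3 and 16.0 normalised read counts in the GSI 48 h libraries, against 63.5, 45.5 and 46.0 in the DMSO 48 h libraries. At 12 h it had 168, 199 and 187 under GSI, against 139, 168 and 104 under DMSO, where the lowest GSI library lay just above the highest DMSO library. IL18RAP, the accessory chain, had 1.27, 0.74 and 0 counts under GSI 48 h, against 56.3, 10.4 and 21.3 under DMSO 48 h, and at 12 h 35.96, 45.6 and 60.4 under GSI, against 68.1, 32.0 and 35.4 under DMSO. These chains were picked by the size of their p, and their values are given as a description.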
